A study of Mus musculus with 7 samples.

Results

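The CD160, BTLA, HVEM and LIGHT network is a group of 4 surface proteins on lymphocytes, encoded in the mouse by Cd160, Btla, Tnfrsf14 and Tnfsf14. The members were taken by gene name, and all 4 were found among the 53656 gene rows of the deposited count tables. The samples were OT1 cells, CD8 T cells with a transgenic receptor for an ovalbumin peptide, sorted by flow cytometry for CD8 and for CD45.1, a congenic marker, from tumours of the B16-OVA-GP61 melanoma line. In 3 libraries the tumours also held SMARTA cells, CD4 T cells whose transgenic receptor recognises the GP61 epitope, and in 4 libraries there were no SMARTA cells. OT1 cells, the tumour line and the sort were common to both groups, so the presence of SMARTA cells is the one difference the labels give. The series title asks how CD4 T cells bear on reprogramming of CD8 T cells specific for a tumour, and the comparison with against without SMARTA addresses this for the network's transcripts. Mouse strain, age, time of harvest and the number of animals behind a library are not given in the sources used here, so a p-value is set only against the spread among these samples, and some of that spread may be technical.

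HVEM, the product of Tnfrsf14, is a receptor of the tumour necrosis factor receptor superfamily and the hub of the network. It binds LIGHT, a cytokine of the tumour necrosis factor family, and on another face of the molecule it binds the immunoglobulin-superfamily proteins BTLA and CD160. BTLA carries inhibitory tyrosine motifs that recruit phosphatases and dampen T cell receptor signals, CD160 is found on activated and exhausted CD8 T cells, natural killer cells and intraepithelial lymphocytes, and HVEM itself signals through TRAF adaptors to NF-kappaB. LIGHT also binds the lymphotoxin beta receptor, and each protein can therefore act as ligand or receptor depending on the cell that carries it.

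The promoter windows of the genes that the results turn on are shown here, from RefSeq on GRCm38.p6, each running from 250 bases before to 50 bases after an annotated start, 5′ to 3′ on the gene's own strand. All 4 members matched the RefSeq table, with 5 windows, since Cd160 has a pair of annotated starts whose transcripts cannot be told apart in counts per gene. Capitals mark matches on either strand to the AP-1 motif TGANTCA, the NFAT core GGAAA, the T-box motif GGTGTGA or the core of the interferon-stimulated response element, a pair of GAAA repeats with any 2 bases between them. Cd160 and Tnfsf14 are shown because their transcripts fell, and Tnfrsf14 because it encodes the receptor that their products bind. All lie on the minus strand, the upstream Cd160 window at chr3:96829302-96829601, the downstream one at chr3:96814472-96814771, Tnfsf14 at chr17:57194132-57194431 and Tnfrsf14 at chr4:154928028-154928327.
Cd160 upstream start: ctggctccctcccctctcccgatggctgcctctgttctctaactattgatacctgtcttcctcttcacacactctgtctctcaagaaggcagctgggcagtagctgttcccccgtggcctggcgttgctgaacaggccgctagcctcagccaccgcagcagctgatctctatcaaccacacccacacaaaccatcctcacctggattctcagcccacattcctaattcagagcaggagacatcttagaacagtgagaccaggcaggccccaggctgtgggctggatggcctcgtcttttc
Cd160 downstream start: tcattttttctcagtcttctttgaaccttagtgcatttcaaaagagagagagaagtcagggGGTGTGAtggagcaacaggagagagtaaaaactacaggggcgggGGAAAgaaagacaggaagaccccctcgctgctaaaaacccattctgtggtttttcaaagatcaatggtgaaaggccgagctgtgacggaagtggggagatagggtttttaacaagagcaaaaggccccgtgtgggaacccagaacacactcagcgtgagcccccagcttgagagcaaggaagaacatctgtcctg
Tnfsf14: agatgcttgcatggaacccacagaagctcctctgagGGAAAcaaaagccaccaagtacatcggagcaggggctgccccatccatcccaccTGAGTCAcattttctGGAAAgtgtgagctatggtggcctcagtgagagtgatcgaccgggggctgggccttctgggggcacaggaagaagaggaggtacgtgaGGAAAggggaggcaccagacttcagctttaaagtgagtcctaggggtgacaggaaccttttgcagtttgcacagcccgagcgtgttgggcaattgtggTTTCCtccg
Tnfrsf14: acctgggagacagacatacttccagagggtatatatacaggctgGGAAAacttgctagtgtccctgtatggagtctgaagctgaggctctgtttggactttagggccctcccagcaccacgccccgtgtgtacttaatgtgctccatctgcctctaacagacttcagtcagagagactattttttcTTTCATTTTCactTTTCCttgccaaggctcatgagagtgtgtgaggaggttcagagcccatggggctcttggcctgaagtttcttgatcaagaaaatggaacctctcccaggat

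The upstream Cd160 window held none of the 4 motifs, and the downstream one held 1 T-box match and 1 NFAT core match. The Tnfsf14 window held 1 AP-1 match and 4 NFAT core matches, and the Tnfrsf14 window 1 interferon-stimulated response element core and 2 NFAT cores. No marked match overlapped another motif's match, and the Btla window held none. Over all 32851 RefSeq windows of this length, 7.81% held the AP-1 motif, 61.3% the NFAT core, 3.98% the T-box motif and 3.44% the interferon element core. A match describes the letters of the window and is not evidence of binding.

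The libraries held 38092722 to 49438357 counts, and 15896 genes had enough counts to be tested, the 4 members among them. Summed markers of CD8 T cells (8 genes, including Cd3e, Cd8a and Cd8b1) came to 11460 to 14250 CPM (counts scaled to library size) with SMARTA and 10060 to 11320 CPM without, and each of the 8 was detected in every library. Replicate 1 with SMARTA stood apart by its erythroid transcripts (6 genes, 4806 CPM, against 9.72 to 223 CPM in the other 6 libraries). Replicate 2 without SMARTA held the most melanoma transcript (7 genes, 68.4 CPM, against 6.70 to 16.9 CPM in the others). Over all genes, 3.15% were called at a Benjamini-Hochberg adjusted p under 0.05 in edgeR's quasi-likelihood test, 1.52% as higher and 1.63% as lower with SMARTA, 18.6% had an unadjusted p under 0.05, and in 19.2% the CPM of the groups did not overlap.

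Cd160 and Tnfsf14 transcripts fell together in OT1 cells from tumours with SMARTA cells, each to about the same fraction of its level without them, while neither Btla nor Tnfrsf14 passed the test. Of the 4 members 2 were thus called, both lower, beside a background of 3.15% of all genes. The members were chosen with earlier results of these data known, so this count is a description and not a test. The fall of the HVEM-binding receptor CD160 was 3.22-fold at the transcript level, and that of the HVEM ligand LIGHT was 3.41-fold. For Btla and Tnfrsf14 the libraries of the groups overlapped.

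Cd160 encodes a small immunoglobulin-like receptor that binds HVEM and, more weakly, MHC class I molecules. The gene lies on chromosome 3 from 96798763 to 96829351 on the minus strand (GRCm38). Its transcript stood at 163, 130.1 and 87.0 CPM in replicates 1 to 3 with SMARTA, against 451, 358, 364 and 460.3 CPM in replicates 1 to 4 without. The highest library with SMARTA was under the lowest library without, so the groups did not overlap. In raw counts the 3 libraries with SMARTA held 7680, 5397 and 2959, and the 4 without held 22255, 16442, 17896 and 21821, so counting error was small beside the spread between libraries. The mean was 127 ± 38.0 CPM with SMARTA and 408 ± 55.01 CPM without (SD, n = 3 and 4), a log2 fold change of -1.69 ± 0.25 (SE) with a 95% interval from -2.25 to -1.12 (edgeR adjusted p = 0.0175). In sorted bulk cells a lower share of Cd160-positive cells and less transcript per cell cannot be told apart.

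The call for Cd160 held in 4 of the 7 fits that leave out 1 library. It was lost without replicate 2 with SMARTA (edgeR adjusted p = 0.0678) and without replicate 1 or 4 lacking SMARTA (edgeR adjusted p = 0.0550 and 0.0725), while the log2 fold change stayed between -1.92 and -1.51. Cd160 also marks natural killer cells, and the values of that cell type were therefore read beside it. The natural killer receptor gene Ncr1 had no count in the 3 libraries with SMARTA and at most 0.823 CPM without, and Klra8 was at 0.131 CPM or less in every library. Klrb1b did not overlap and moved in the direction of Cd160, at 0 to 0.341 CPM with SMARTA and 2.29 to 8.79 CPM without. Klrb1c, Tyrobp and Cd7 overlapped. The summed level of the 6 natural killer markers was 74.4 to 224 CPM with SMARTA and 99.6 to 186 CPM without, with overlap between the groups. Most of that sum came from Klrb1c and Cd7. The part of natural killer cells in the Cd160 level was not tested. The first Cd160 exon shares 68 of the gene's 2642 exonic bases with Pdzk1, a scaffold protein gene on the opposite strand. Pdzk1 stood at 0 to 0.530 CPM with SMARTA and 0.717 to 1.61 CPM without. Read pairs there that could not be assigned to a single gene were left out of both genes.

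Tnfsf14 encodes LIGHT, which engages HVEM and the lymphotoxin beta receptor and costimulates T cells. It lies on chromosome 17 from 57189492 to 57194189 on the minus strand. Its transcript stood at 20.3, 14.2 and 13.6 CPM with SMARTA, against 43.5, 47.0, 74.0 and 54.3 CPM without, in replicate order. Again no library with SMARTA reached the lowest library without. The mean was 16.04 ± 3.73 CPM with SMARTA and 54.7 ± 13.6 CPM without (SD, n = 3 and 4), a log2 fold change of -1.77 ± 0.28 (SE) with a 95% interval from -2.41 to -1.13 (edgeR adjusted p = 0.0207).

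The Tnfsf14 call held in 3 of the 7 fits that leave out 1 library. It was lost without replicate 2 or 3 with SMARTA (edgeR adjusted p = 0.0890 and 0.0673) and without replicate 3 or 4 lacking SMARTA (edgeR adjusted p = 0.0590 and 0.0841), with log2 fold changes from -1.99 to -1.59. Summed neutrophil markers (6 genes) moved in the same direction, with 0.726 to 2.12 CPM with SMARTA and 2.84 to 35.8 CPM without. The high sums were those of replicates 1 and 2 without SMARTA (35.8 and 30.0 CPM), while replicate 4 stood at 3.80 CPM. Retnlg was at 0 in every library with SMARTA and also in replicates 3 and 4 without. The library with the most Tnfsf14 transcript, replicate 3 without SMARTA, had the lowest neutrophil sum of its group, 2.84 CPM. That sum still lay above the highest with SMARTA, 2.12 CPM. The part of neutrophils in the Tnfsf14 level was not tested.

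**Figure D1:**
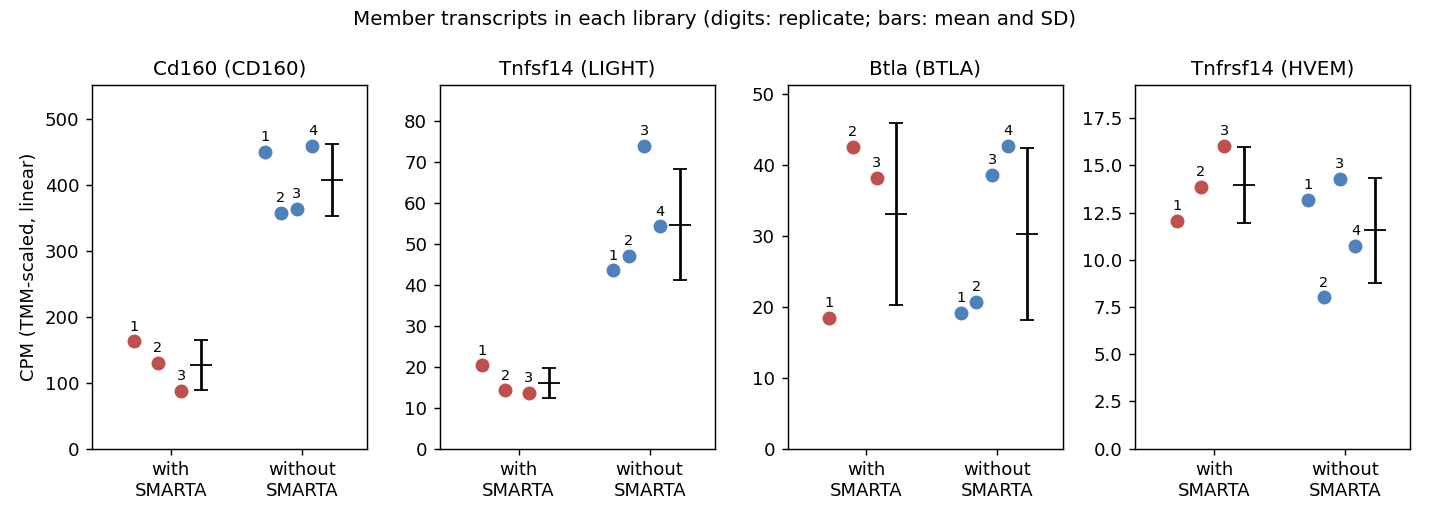
Each panel plots the TMM-scaled CPM of 1 member on a linear axis in the 3 libraries with SMARTA and the 4 without. Points carry the replicate number, and the bar beside each group is its mean and SD. For Cd160 and Tnfsf14 every library with SMARTA lies under every library without (163 against 358 CPM and 20.3 against 43.5 CPM for the nearest pair), whereas the groups overlap for Btla and Tnfrsf14.

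Btla encodes the other immunoglobulin-family partner of HVEM. It lies on chromosome 16 from 45224315 to 45252895 on the plus strand. Its transcript stood at 18.5, 42.5 and 38.1 CPM with SMARTA, against 19.1, 20.7, 38.5 and 42.7 CPM without. Both groups held libraries near 20 CPM and libraries near 40 CPM, so that they overlapped over nearly their whole range. The mean was 33.04 ± 12.8 CPM with SMARTA and 30.3 ± 12.1 CPM without (SD, n = 3 and 4), which is 0.13 ± 0.40 (SE) as a log2 fold change (edgeR adjusted p = 0.909). The 95% interval of the fold ran from 0.583 to 2.05, and changes within that range cannot be told apart with these libraries. The sign turned to -0.02 with library totals in place of TMM scaling, and between -0.09 and 0.41 it depended on which library was left out.

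BTLA is also carried by B cells, dendritic cells and CD4 T cells. Replicate 1 with SMARTA had the highest sums of B cell markers (8 genes, 63.8 CPM) and of dendritic cell markers (7 genes, 434 CPM) and the lowest Btla level of all 7 libraries. Over the groups the B cell sum was 11.8 to 63.8 CPM with SMARTA and 10.4 to 45.7 CPM without, and the dendritic cell sum 146 to 434 CPM with SMARTA and 60.6 to 222 CPM without. Itgax, which T cells also express, made up most of the dendritic cell sum. Summed CD4 T cell markers (4 genes) were at 120.5 to 140.3 CPM with SMARTA and 39.7 to 96.2 CPM without, mainly through Cd40lg. Cd40lg did not overlap, at 88.1 to 101 CPM with SMARTA and 26.2 to 68.1 CPM without. Zbtb7b did not overlap either, at 23.1 to 43.3 CPM with SMARTA and 7.96 to 22.7 CPM without. Cd4 itself overlapped at 2.05 to 8.09 CPM with SMARTA and 0.659 to 7.30 CPM without. Foxp3 also overlapped, at 0 to 1.84 CPM with SMARTA and 0.638 to 11.97 CPM without. The part of these cells in the levels of Btla or of the other members was not tested.

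Tnfrsf14, the gene of HVEM, lies on chromosome 4 from 154921933 to 154928563 on the minus strand. Its transcript stood at 12.0, 13.9 and 16.1 CPM with SMARTA, against 13.2, 8.01, 14.3 and 10.7 CPM without. It varied least among the members, and every library with SMARTA lay above the 2 lowest libraries without. The mean was 14.0 ± 2.01 CPM with SMARTA and 11.6 ± 2.79 CPM without (SD, n = 3 and 4), which is 0.27 ± 0.29 (SE) as a log2 fold change (edgeR adjusted p = 0.683). The 95% interval of the fold ran from 0.769 to 1.90, which leaves out a fall of the size seen for Cd160 or Tnfsf14.

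Levels between genes were compared per length (TPM, counts divided by exon length and scaled to the same sum in every library). Without SMARTA the order was Cd160 (468 ± 56.2 TPM), Tnfsf14 (89.0 ± 20.8 TPM), Btla (28.1 ± 10.99 TPM) and Tnfrsf14 (24.2 ± 5.01 TPM; SD, n = 4). Cd160 led Tnfsf14, and Tnfsf14 led Btla and Tnfrsf14, in each of the 4 libraries, but Btla and Tnfrsf14 did not differ beyond their spread and changed places in replicate 1. With SMARTA Cd160 still led in each of the 3 libraries, at 134 ± 40.1 TPM. Tnfsf14, at 24.04 ± 4.92 TPM, was then within the spread of Btla, at 28.7 ± 12.2 TPM, and of Tnfrsf14, at 27.2 ± 4.12 TPM (SD, n = 3). LIGHT transcript was the lowest of the 4 in replicates 2 and 3 with SMARTA and the second highest in replicate 1.

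Read as a percentile among all tested genes within a library, which needs no scaling between libraries, Cd160 lay at 88.4 to 93.5 with SMARTA and at 97.7 to 98.3 without. Tnfsf14 lay at 67.1 to 73.4 with SMARTA and at 84.9 to 90.2 without. The percentiles of Btla were 63.3 to 76.0 with SMARTA and 64.5 to 76.1 without, and those of Tnfrsf14 were 69.4 to 74.1 with SMARTA and 62.6 to 71.8 without. Cd160 transcript made up 61.7 ± 9.49% of the summed TPM of the 4 members with SMARTA and 76.7 ± 5.36% without. The share of Tnfrsf14 was 13.2 ± 4.11% with SMARTA and 3.98 ± 0.850% without, and that of Btla 13.8 ± 6.40% with SMARTA and 4.57 ± 1.57% without. That of Tnfsf14 was 11.3 ± 1.54% with SMARTA and 14.7 ± 3.79% without (SD, n = 3 and 4 for each share). Shares of a common sum depend on each other. In TPM itself Btla (28.7 with SMARTA and 28.1 without) and Tnfrsf14 (27.2 with SMARTA and 24.2 without) stayed within their spread.

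**Figure D2:**
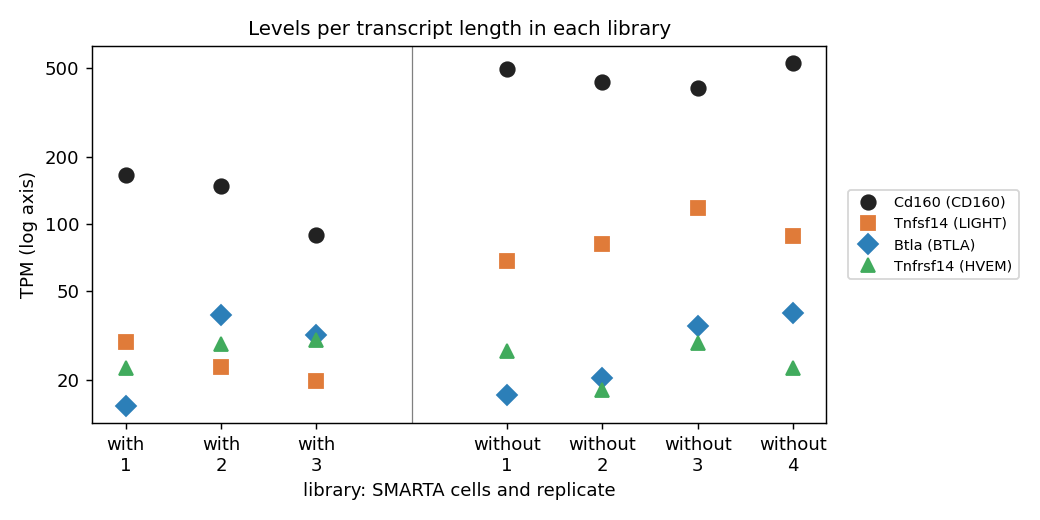
TPM of the 4 members on a log axis, by library, with the 3 libraries with SMARTA left of the 4 without. Cd160 is highest in all 7 libraries. Tnfsf14 stands second in each library without SMARTA (68.5 to 118 TPM). With SMARTA (19.8 to 29.4 TPM) it is second in replicate 1 and lowest in replicates 2 and 3.

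The balance between members was tested within libraries, as log2 ratios of counts per length, which do not depend on library scaling. All 6 pairs were compared, each by exact permutation of the group labels (two-sided, 35 arrangements), with Benjamini-Hochberg adjustment over the 6 pairs. The ratio of receptor to ligand, Tnfrsf14 to Tnfsf14, was 0.766, 1.26 and 1.53 with SMARTA, against 0.392, 0.220, 0.250 and 0.256 without. HVEM transcript thus exceeded LIGHT transcript in 2 of 3 libraries with SMARTA and in none of the 4 without. The mean log2 ratio was 0.19 ± 0.51 with SMARTA and -1.87 ± 0.36 without (SD, n = 3 and 4), a difference of 2.06 (exact permutation p = 0.0286, adjusted 0.0429).

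The ratio of Cd160 to Btla, the pair of immunoglobulin-family partners of HVEM, was 10.9, 3.77 and 2.81 with SMARTA, against 29.1, 21.3, 11.6 and 13.3 without. The groups did not overlap, although replicate 1 with SMARTA came close to replicate 3 without, and the mean log2 ratio differed by -1.85 (exact permutation p = 0.0286, adjusted 0.0429). The log2 ratio of Cd160 to Tnfrsf14 differed by -2.03 and that of Btla to Tnfsf14 by 1.89, with the same p and adjusted p by the exact permutation test. The ratio of Cd160 to Tnfsf14 was 5.63, 6.44 and 4.50 with SMARTA, against 7.29, 5.35, 3.46 and 5.97 without. These groups overlapped and the mean log2 ratio differed by 0.04 (exact permutation p = 0.886, adjusted 0.886), less than the spread within either group. The log2 ratio of Btla to Tnfrsf14 differed by -0.17 (exact permutation p = 0.686, adjusted 0.823). The smallest p this design allows is 0.0286, and by doubling the smaller tail the 4 ratios that passed have p = 0.0571 (exact permutation, adjusted 0.0857) and do not pass. All 4 set Cd160 or Tnfsf14 against Btla or Tnfrsf14, so they restate the same falls and are not separate results. Their adjusted exact permutation p of 0.0429 is under 0.05 because all 4 tie at the smallest p.

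**Figure D3:**
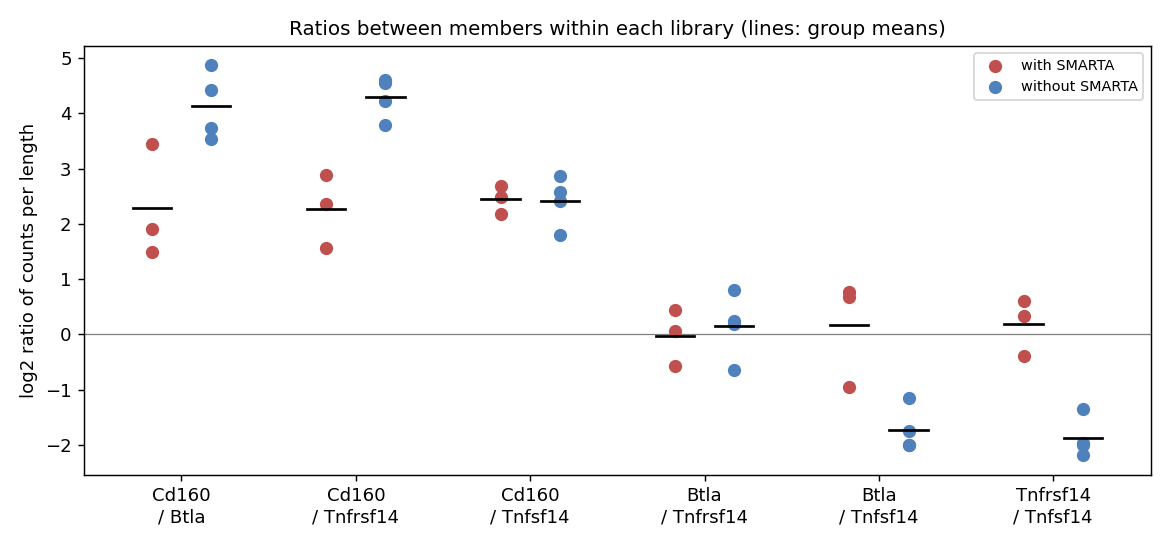
Log2 ratios of counts per length between each pair of members, with points for libraries with SMARTA left of those without and lines at the group means. The 4 ratios that set Cd160 or Tnfsf14 against Btla or Tnfrsf14 do not overlap between the groups. Those of Cd160 to Tnfsf14 (means 2.45 with SMARTA and 2.41 without) and of Btla to Tnfrsf14 (-0.02 with SMARTA and 0.15 without) do.

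Of the further ligands and receptors around HVEM and LIGHT, 9 of 10 listed genes were tested and none was called, beside 3.15% of all genes. The log2 fold change was above 0 in all 9, beside 7913 of all 15896 genes, and its median was 0.64, against -0.00 over all genes. At an unadjusted p under 0.05 the edgeR fit held 1 of them, beside 18.6% of all genes. It was Cd1d1, which encodes an antigen-presenting molecule related to MHC class I. Cd1d1 stood at 62.7, 36.1 and 54.0 CPM with SMARTA, against 34.99, 34.4, 26.7 and 24.7 CPM without (log2 fold change 0.75, edgeR adjusted p = 0.162). Its groups did not overlap, which held for 1 of the 9, beside 19.2% of all genes. The next smallest p-values were those of the tumour necrosis factor receptor gene Tnfrsf1b (0.60; edgeR adjusted p = 0.283), of Ltb, which encodes lymphotoxin beta (1.08; edgeR adjusted p = 0.315), and of the MHC class I gene H2-K1 (0.64; edgeR adjusted p = 0.391). H2-K1 and H2-D1 have near-identical relatives, so their counts are uncertain. Ltbr, the gene of the lymphotoxin beta receptor through which LIGHT also signals, was barely detected in these libraries. It stood at 1.93, 0.386 and 0.206 CPM with SMARTA, and at 0.0218 to 0.569 CPM without. The 1.93 CPM came from replicate 1, the library with the highest dendritic cell and macrophage sums (434 and 183 CPM). The part of such cells in the Ltbr level was not tested. Cd5, a surface receptor that dampens T cell receptor signals, stood at 288 ± 57.5 CPM with SMARTA and 286 ± 52.5 CPM without (SD, n = 3 and 4). DESeq2 and limma-voom called none of the 9 either.

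None of the 9 tested signalling partners of BTLA and CD160 was called, beside 3.15% of all genes. The log2 fold change was above 0 in 4 and below 0 in 5, and its median was -0.25. Pik3cd, the catalytic phosphatidylinositol 3-kinase subunit of leukocytes, came nearest, at 1237, 1277 and 1292 CPM with SMARTA, against 621, 674, 867 and 831 CPM without (log2 fold change 0.76 with an SE of 0.17; edgeR adjusted p = 0.0507). Its groups did not overlap, which held for 1 of the 9, beside 19.2% of all genes. DESeq2 and limma-voom called the gene (adjusted p = 0.00163 and 0.0404). The kinase gene Lck was the only other member with an unadjusted p under 0.05 (log2 fold change 0.44, edgeR adjusted p = 0.238), beside 18.6% of all genes. Ptpn6 and Ptpn11, the phosphatases that BTLA recruits, had log2 fold changes of -0.41 and -0.31 (edgeR adjusted p = 0.586 and 0.653). Ptpn6 stood at 1193, 550.1 and 525.1 CPM with SMARTA, against 1339, 752, 828 and 1096 CPM without. With replicate 1 with SMARTA and replicate 2 lacking it both left out, a choice made after the data were seen, it was called lower (-1.01; edgeR adjusted p = 0.0477). Pik3r1 and Fyn stood at -0.37 and -0.29 (edgeR adjusted p = 0.404 and 0.522).

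On the TRAF and NF-kappaB route downstream of HVEM none of 15 tested genes was called, beside 3.15% of all genes. The log2 fold change was above 0 in 12 and below 0 in 3, beside 7913 above 0 among all 15896 genes. Its median was 0.40. In 5 of the 15 the groups did not overlap, against 19.2% of all genes. Map3k14, the kinase NIK of the noncanonical route, stood at 140.2, 94.2 and 130.6 CPM with SMARTA, against 35.7, 80.2, 68.3 and 57.2 CPM without (log2 fold change 1.01 with an SE of 0.29; edgeR adjusted p = 0.1003), and DESeq2 called it (adjusted p = 0.0200). The kinase gene Ikbkb (0.50; edgeR adjusted p = 0.172), the ubiquitin ligase gene Birc3 (0.67; edgeR adjusted p = 0.189) and the adaptor gene Traf1 (0.48; edgeR adjusted p = 0.220) had the next smallest p. Traf5, an adaptor that HVEM binds, was the member with the largest negative value, at 35.9, 33.4 and 16.4 CPM with SMARTA, against 35.4, 38.3, 83.9 and 58.4 CPM without (-0.92; edgeR adjusted p = 0.257). Traf2, another adaptor gene of the list, differed by 0.16 on the log2 scale (edgeR adjusted p = 0.717). With replicate 1 with SMARTA left out, Birc2 was called (1.21; edgeR adjusted p = 0.0270). In 7 of the 15 (Map3k14, Birc2, Ikbkb, Birc3, Traf1, Traf5 and Rela) the unadjusted p was under 0.05, against 18.6% of all genes, and limma-voom called none.

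Among 9 tested genes of other inhibitory receptors, Lag3 and Cd244 fell and none rose, beside 1.63% of all genes called lower and 1.52% called higher. The median of the list was -1.18 on the log2 scale, the value of Havcr2, against -0.00 over all genes. Cd244, a receptor of the SLAM family, stood at 27.7, 23.2 and 20.5 CPM with SMARTA, against 121, 72.6, 53.7 and 102 CPM without (-1.88; edgeR adjusted p = 0.0257). Lag3, which binds MHC class II, stood at 18.5, 14.3 and 10.1 CPM with SMARTA, against 32.7, 48.6, 105 and 60.9 CPM without (-2.11; edgeR adjusted p = 0.0421). With 1 library left out, Cd244 was called only without replicate 1 with SMARTA or replicate 2 or 3 lacking SMARTA, and Lag3 only without replicate 1 with SMARTA. Pdcd1, the gene of PD-1, differed by -1.22 on the log2 scale (edgeR adjusted p = 0.302) and with 1 library left out ranged from -2.44, where it was called (without replicate 3 with SMARTA, edgeR adjusted p = 0.0481), to -0.87 (without replicate 2 with SMARTA, edgeR adjusted p = 0.581). Havcr2 stood at -1.18 (edgeR adjusted p = 0.427) and at -2.14 to -0.68 with 1 library left out, without a call in any of the 7 fits. Tigit and Ctla4 stood at -0.35 and 0.49 (edgeR adjusted p = 0.610 and 0.655).

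**Figure D4:**
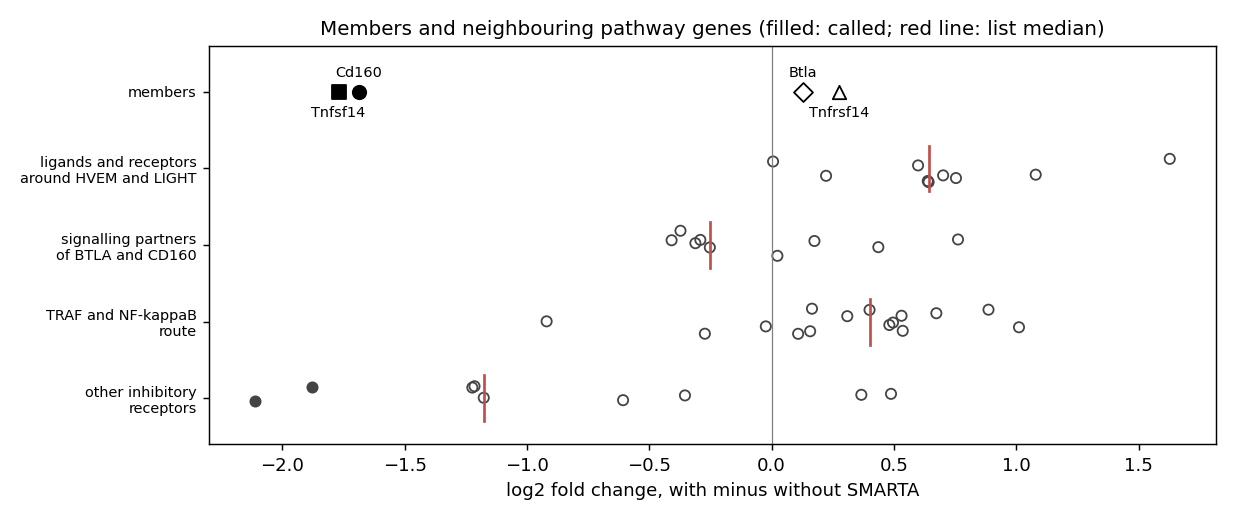
Log2 fold changes with minus without SMARTA of the 4 members (top) and of the tested genes of the 4 lists, with vertical jitter. Filled symbols are genes called at an edgeR adjusted p under 0.05 and red lines are list medians (0.64, -0.25, 0.40 and -1.18 from top to bottom). The called genes are Cd160, Tnfsf14, Lag3 and Cd244, all to the left of 0.

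Neighbouring genes on the chromosomes gave a local comparison. Tnfsf14 lies between Cd70, another ligand gene of the tumour necrosis factor family 39715 bases away, and the complement gene C3, 9781 bases away. Cd70 stood at 0.827, 0.313 and 0.0588 CPM with SMARTA, against 5.29, 2.37, 2.89 and 2.93 CPM without. It was low in every library, did not overlap between the groups and did not pass (log2 fold change -3.05; edgeR adjusted p = 0.0789), though DESeq2 called it (adjusted p = 0.00109), as did edgeR without replicate 1 with SMARTA (-4.13; adjusted p = 0.0296). C3 differed by -0.26 on the log2 scale (edgeR adjusted p = 0.900) that changed sign in 3 of the fits that leave out 1 library.

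Cd200, a membrane ligand gene 129240 bases beyond Btla, fell to 2.78, 4.41 and 4.97 CPM with SMARTA, against 19.7, 10.2, 32.7 and 33.8 CPM without (log2 fold change -2.57; edgeR adjusted p = 0.0344). With 1 library left out it was called only without replicate 1 with SMARTA or replicate 2 lacking SMARTA. Btla itself did not follow it. On the other side of Btla the gene model Gm6030 was at 0.348 CPM or less in every library. Beside Cd160, Gpr89 was lower in every library with SMARTA (44.7, 51.1 and 52.3 CPM) than in any without (60.6 to 80.5 CPM), with a log2 fold change of -0.52 that missed the threshold (edgeR adjusted p = 0.194), and Rnf115 differed by 0.15 on the log2 scale (edgeR adjusted p = 0.853). The neighbours of Tnfrsf14, Fam213b and Pank4, had log2 fold changes of 1.00 and 0.13 (edgeR adjusted p = 0.453 and 0.777).

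The genes whose profile over the 7 libraries was most like that of a member were found by the smallest root mean square difference of mean-centred log2 CPM among 8254 genes of moderate or high expression. For Cd160 they were Timeless, a replication fork protein gene (0.178 log2 units), and Pop1, a subunit gene of ribonuclease P (0.184 log2 units). Their log2 fold changes were -1.74 and -1.56, a direction fixed by choosing them for likeness to Cd160, so no test is given. For Tnfsf14 they were Ptms, the gene of parathymosin (0.191 log2 units), and Dot1l, which encodes a histone H3 lysine methyltransferase (0.211 log2 units). Their log2 fold changes were -1.52 and -1.59, likewise a description that follows from the choice.

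For Btla the nearest profiles were those of AC167815.1 (0.226 log2 units) and Cd72, a lectin-like receptor gene of B cells (0.231 log2 units), and for Tnfrsf14 those of Dscr3 (0.113 log2 units) and the lipase gene Abhd6 (0.121 log2 units). Cd160 and Tnfsf14 differed from each other by 0.329 log2 units on this measure, and Btla and Tnfrsf14 by 0.484 log2 units. Any gene of the first pair differed from any of the second by 1.08 to 1.14 log2 units.

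**Figure D5:**
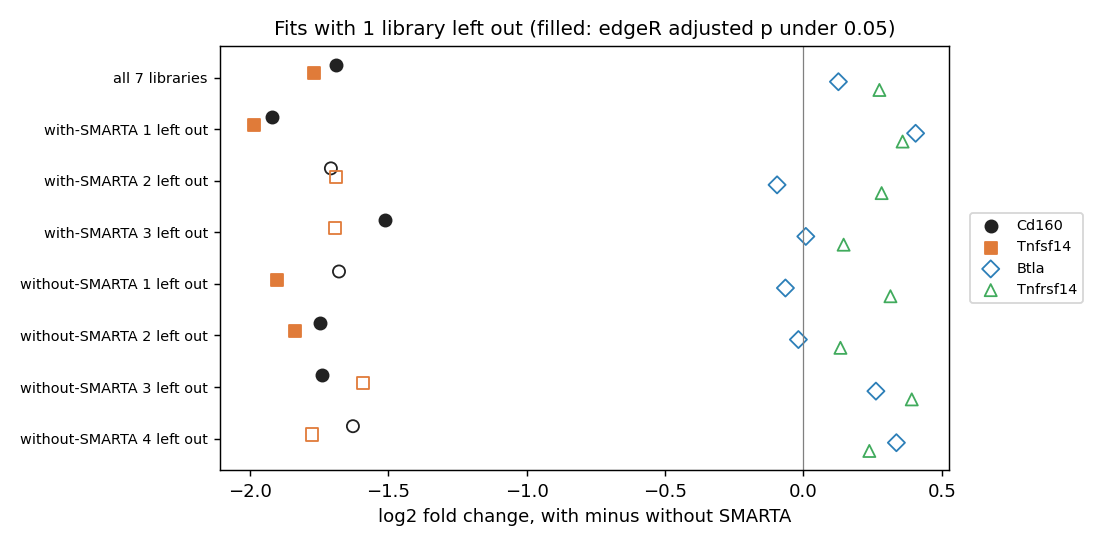
Log2 fold changes with minus without SMARTA of the 4 members with all 7 libraries and with each library left out in turn. Filled symbols have an edgeR adjusted p under 0.05. Cd160 stays between -1.92 and -1.51 and Tnfsf14 between -1.99 and -1.59 whichever library is left out, with 4 and 3 of the 7 fits passing, while Btla lies on both sides of 0.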

How the data were processed

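RNA of sorted OT1 cells was sequenced in 7 libraries. Per the labels' protocols, total RNA (6-15 ng) was amplified with a SMART-seq kit in 12 cycles, which does not mark strand, and read as 50-base pairs. Per the submitters' processing notes the authors used STAR 2.6.0c and featureCounts 1.6.2 with GRCm38.p6. Per the file headers, featureCounts summed pairs over GENCODE M17 exons by gene name without strand, so the deposited values are raw counts. Pairs that could not be assigned to a single gene or place were left out under the default settings. Exon lengths of the deposited tables, the only other unit used, gave TPM.

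Samples were grouped by title. Counts were tested with edgeR 4.0.16 in R 4.3.3 (filterByExpr with a minimum count of 10 and total of 15, TMM, robust quasi-likelihood fit, all 7 libraries, no covariate, two-sided), adjusted over all 15896 tested genes. CPM of single genes are TMM-scaled and those of marker sums use library totals; log2 CPM used a prior count of 2. Standard errors are the fold change over the root of F, and 95% intervals from the fit's degrees of freedom. Within-library ratios used count + 0.5 per length and were tested with SciPy 1.17.1, counting splits by the size of the difference. The members and lists were chosen with earlier results of these data known, and the promoter motifs and Pdzk1 after these values were seen. Named genes are the members, each list's called genes filled up to the 4 smallest p, the nearest tested gene on each side of a member, and the 2 nearest profiles; other list genes and counts of 5 or fewer were named after their values were seen. Alternatives were relative log expression, upper-quartile and library-total scaling, other filters, DESeq2 1.42.0, limma-voom (limma 3.58.1), no robust estimation, replicate blocks and each library left out. Fits and the permutation step were tested on simulated data. At the spread fitted to these libraries edgeR recovered 14% of simulated 2-fold and 45% of simulated 4-fold changes, with 2 false calls. A gene that was not called may therefore still differ. No 2 libraries of a group were alike within counting noise (lowest chi-square divided by its degrees of freedom 93.5, over genes with at least 20 counts). A gene without a count lay below 0.0607 to 0.0788 CPM, the level of 3 counts, which covers counting error only.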

Additional observations from a re-analysis of the deposited data

Results flagged for a closer look

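Among 42 values looked at over the 4 libraries without SMARTA, 1 had a library far from the other 3, where chance gives about 1 in 20. Traf1, an adaptor gene of the NF-kappaB route, stood at 673.9 CPM in replicate 2 without SMARTA, against 550.4 to 559 CPM in the other 3 libraries of the group. None of the 4 members had such a library.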

How the results depend on the processing

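Cd160 and Tnfsf14 kept their direction and their call under all 9 alternatives of scaling, filter, tool, robust estimation and the joint removal of replicate 1 with SMARTA and replicate 2 lacking it (chosen after seeing the data), at -1.97 to -1.69 for Cd160 and -2.04 to -1.75 for Tnfsf14 (log2 fold change). Btla and Tnfrsf14 passed under none of them; Btla was at -0.0193 with library totals, which move the median of all genes to -0.16. Titles share replicate numbers, but same-numbered libraries did not deviate together (correlations of -0.139, 0.0264 and -0.274), and the numbers in the file names gave -0.0862, -0.0623 and -0.0440. With the title number as a replicate block edgeR called 0 genes, against 500 without it (1631 at an unadjusted p under 0.05), with 0 other inhibitory receptors, Cd160 at -1.66 (edgeR adjusted p = 0.326) and Tnfsf14 at -1.76 (edgeR adjusted p = 0.338). With the file-name number as a block edgeR again called 0 genes (1868 at an unadjusted p under 0.05) and 0 other inhibitory receptors, and gave Cd160 -1.67, Tnfsf14 -1.86 and Btla -0.0622; DESeq2 without a block called 1741. The count of calls was 842 with the filter of 5 CPM in 3 libraries, 1257 without both libraries, and 17 to 907 with 1 library left out. Lists had 0 to 1 TRAF, 0 to 1 signalling partner, 0 to 0 ligand or receptor and 0 to 2 inhibitory receptor genes called with 1 library left out. Of the signalling partners 1, Pik3cd, was called under relative log expression, upper-quartile scaling, the stricter filter, DESeq2, limma-voom and the non-robust fit, while without both libraries the 1 called was Ptpn6 (-1.01); 1 TRAF gene was called under DESeq2 (Map3k14) and without both libraries (Birc2). With 1 library left out Btla ranged from -0.0949 to 0.41, Cd160 from -1.92 to -1.51, Tnfsf14 from -1.99 to -1.59, and the difference in log2 ratio from -0.437 to 0.101 for Btla to Tnfrsf14 and from -0.170 to 0.189 for Cd160 to Tnfsf14, with no test. It was -2.43 to -1.46 for Cd160 to Btla, -2.33 to -1.67 for Cd160 to Tnfrsf14, 1.59 to 2.45 for Btla to Tnfsf14 and 1.85 to 2.35 for Tnfrsf14 to Tnfsf14. Doubling the smaller tail (chosen after seeing the data) left these differences at -1.85, -2.03, 1.89 and 2.06 with an adjusted exact permutation p of 0.0857. Of 573 values of the 32 other named genes under the alternatives, 503 kept direction and side of the threshold, 49 lost and 12 gained a call, and 9 uncalled ones changed sign: Pank4 with library totals (-0.0330), Cd72 with the title block (0.0924) and with 1 library left out (-0.345 to 0.0856), Rnf115 (-0.297 to 0.323, and 0.373 without both libraries) and C3 (-1.75 to 0.168) with 1 library left out, and Gm6030 without both libraries (0.0429; -0.939 to -0.0747 with 1 left out). The causes were not tested.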
